A study of Mus musculus with 3 samples.

Results

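The interferon regulatory factors are a family of DNA-binding proteins that switch interferon genes and interferon-stimulated genes on or off. Of the 55536 annotated genes in the gene tables, 8 carried a symbol of this family chosen for description, namely Irf1, Irf2, Irf3, Irf4, Irf5, Irf7, Irf8 and Irf9. They were chosen by name, not by their values. All 8 were present in the tables. Polyadenylated RNA was measured in 3 libraries of macrophages grown from the bone marrow of C57BL/6J mice, each made from 1 µg of RNA. The cells had been exposed to lipid A at 100 ng/ml during 12 h, kept without it after washing for 12 h, and exposed again at 100 ng/ml during 480 min. Lipid A is the part of bacterial lipopolysaccharide that Toll-like receptor 4 senses, and the treatment fields of the labels name lipoprotein A instead. The 3 libraries are biological replicates 1, 2 and 3 of 1 group with 1 donor record and no stated age or sex, and no untreated or once-treated cells were analysed here. Levels, transcript usage and the spread between libraries can therefore be described, but no effect of the treatment. Whether separate animals gave the 3 cultures is not stated, so part or all of the spread between these libraries could be technical. Some p-values below set that spread against counting error or against the variance of other genes. The rest concern the difference between 2 ways of quantifying the same libraries.

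Members of the family share an amino-terminal DNA-binding domain that recognises repeats of the letters GAAA. Irf3 and Irf7 are phosphorylated by the kinases Tbk1 and Ikbke below Toll-like receptors and nucleic acid sensors and then turn on interferon beta and interferon alpha genes. Secreted interferon acts through its receptor to bring Irf9 into a complex with Stat2, which turns on antiviral genes, among them Irf7 itself. Irf1 and Irf8 act on antigen presentation and interleukin-12 genes, Irf2 occupies the same sites as Irf1 and mostly represses, Irf5 acts below the adaptor Myd88 on inflammatory cytokine genes, and Irf4 takes part in lymphocyte differentiation and in the alternative activation of macrophages.

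Expected counts totalled 24596382 in replicate 1, 54016971 in replicate 2 and 43127749 in replicate 3. Replicate 2 stood apart from the others. Mitochondrial messenger RNA took 6.86% of its counts, against 1.06% in replicate 1 and 1.13% in replicate 3. Among 5889 protein-coding genes with several annotated transcripts and a mean of at least 10 TPM, the most abundant transcript was another one only in replicate 2 for 1307 genes (22.2%), only in replicate 1 for 157 and only in replicate 3 for 128. TPM, the abundance unit used below, scales each count by the effective length of its transcript and then to a fixed sum per library. The macrophage label was checked against its markers, and all 7 (Lyz2, Cd68, Adgre1, Fcgr1, Csf1r, Itgam and Mertk) reached 1 TPM in every library, with means of 74.8 to 9400 TPM.

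Several of the results below turn on alternative transcripts, so the stretches that tell them apart are shown first, read from the GENCODE M21 transcripts. Capitals mark the stretch in question and the lower-case letters are the 15 bases of transcript on either side. Irf7 lies on mm10 chromosome 7 from 141262706 to 141266481, minus strand. Transcript Irf7-202 leaves out exon 7 of Irf7-201 (93 bases, 141264223 to 141264315), Irf7-203 lacks the first 96 bases of exon 6 (141264560 to 141264655), Irf7-210 retains intron 5 (69 bases, 141264656 to 141264724) and Irf7-205 retains intron 3 (85 bases, 141265292 to 141265376). Both stretches left out lie inside the coding region and have a length that is a multiple of 3.
Irf7 exon 7: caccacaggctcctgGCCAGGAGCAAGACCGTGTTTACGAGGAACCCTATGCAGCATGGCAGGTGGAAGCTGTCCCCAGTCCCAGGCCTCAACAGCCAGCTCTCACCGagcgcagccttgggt
Irf7 start of exon 6: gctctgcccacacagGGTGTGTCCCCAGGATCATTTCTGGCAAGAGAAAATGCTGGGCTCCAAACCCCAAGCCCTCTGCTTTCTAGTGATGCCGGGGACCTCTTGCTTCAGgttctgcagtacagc
Irf7 intron 5: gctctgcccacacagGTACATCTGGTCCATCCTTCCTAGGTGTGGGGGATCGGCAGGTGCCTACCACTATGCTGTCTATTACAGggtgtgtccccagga
Irf7 intron 3: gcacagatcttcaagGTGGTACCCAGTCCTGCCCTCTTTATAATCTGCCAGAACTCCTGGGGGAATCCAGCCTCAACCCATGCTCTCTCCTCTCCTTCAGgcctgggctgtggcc

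Irf1 lies on chromosome 11 from 53770014 to 53778374, plus strand. Transcript Irf1-208 leaves out exon 7 of Irf1-202 (123 bases, 53774346 to 53774468), which lies inside the coding region and is also a multiple of 3 long.
Irf1 exon 7: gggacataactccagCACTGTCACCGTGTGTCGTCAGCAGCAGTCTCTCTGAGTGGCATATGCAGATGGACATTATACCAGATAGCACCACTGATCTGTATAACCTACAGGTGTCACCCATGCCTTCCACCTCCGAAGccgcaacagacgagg

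The family was dominated by Irf7. It was read at 2908, 2136 and 2569 TPM in replicates 1, 2 and 3 (2538 ± 387 TPM, mean ± SD, n = 3, as for the other means), from 81339, 118910 and 128055 expected counts. This level exceeded that of 99.6% of the 10339 protein-coding genes that reached 1 TPM in at least 1 library, whose median was 15.1 TPM. Irf7 made up 79.4%, 76.7% and 79.4% of the summed TPM of the 8 genes in replicates 1, 2 and 3 (78.5 ± 1.52%).

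The other factor that directly turns on interferon genes, Irf3 (chromosome 7, 44997648 to 45002848, plus strand), lay far below it. It had 29.3 TPM in replicate 1, 15.2 TPM in replicate 2 and 29.8 TPM in replicate 3 (24.8 ± 8.32 TPM). Replicates 1 and 3 were almost the same and replicate 2 was the low one, and without it the mean was 29.6 TPM. Within each library Irf7 exceeded Irf3 by 6.63, 7.13 and 6.42 log2 units of TPM + 0.1, a mean ratio of 106-fold. Irf9 (chromosome 14, 55603571 to 55610030, plus strand), the DNA-binding subunit of the complex with Stat2, had 68.2, 66.7 and 80.0 TPM in replicates 1, 2 and 3 (71.7 ± 7.26 TPM). Its coefficient of variation was 10.1% in the first quantification and 21.4% in the second.

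Irf1 and its antagonist Irf2 (chromosome 8, 46739732 to 46847458, plus strand) did not keep 1 ratio. Irf1 had 244 TPM in replicate 1, 215 TPM in replicate 2 and 149 TPM in replicate 3 (203 ± 48.4 TPM). Irf2 had 75.4 TPM in replicate 1, 159 TPM in replicate 2 and 84.4 TPM in replicate 3 (106 ± 46.1 TPM). Replicate 2 was the high one for Irf2, with 14144 expected counts against 2249 and 4291 in replicates 1 and 3, and without it the mean was 79.9 TPM. Irf1 exceeded Irf2 in each library, by 1.69, 0.43 and 0.82 log2 units in replicates 1, 2 and 3.

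Among the factors of myeloid cells, Irf5 (chromosome 6, 29526625 to 29541871, plus strand) had 261 TPM in replicate 1, 131 TPM in replicate 2 and 227 TPM in replicate 3 (206 ± 67.5 TPM). Replicate 2 was again the low one, and without it the mean was 244 TPM. Irf8 (chromosome 8, 120736358 to 120756694, plus strand), a factor that myeloid precursors need to form monocytes and dendritic cells, had 78.4, 60.6 and 97.4 TPM in replicates 1, 2 and 3 (78.8 ± 18.4 TPM). Irf4 (chromosome 13, 30749226 to 30766976, plus strand) was read at trace level. It had 0.16, 0.07 and 0.09 TPM in replicates 1, 2 and 3, from 12, 14 and 13 expected counts. The ratio of Irf8 to Irf4, close relatives that can bind next to the ETS factor Spi1, was 381-fold on the scale of TPM + 0.1, and because Irf4 is of the size of that added 0.1 the figure understates the difference.

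**Figure D1:**
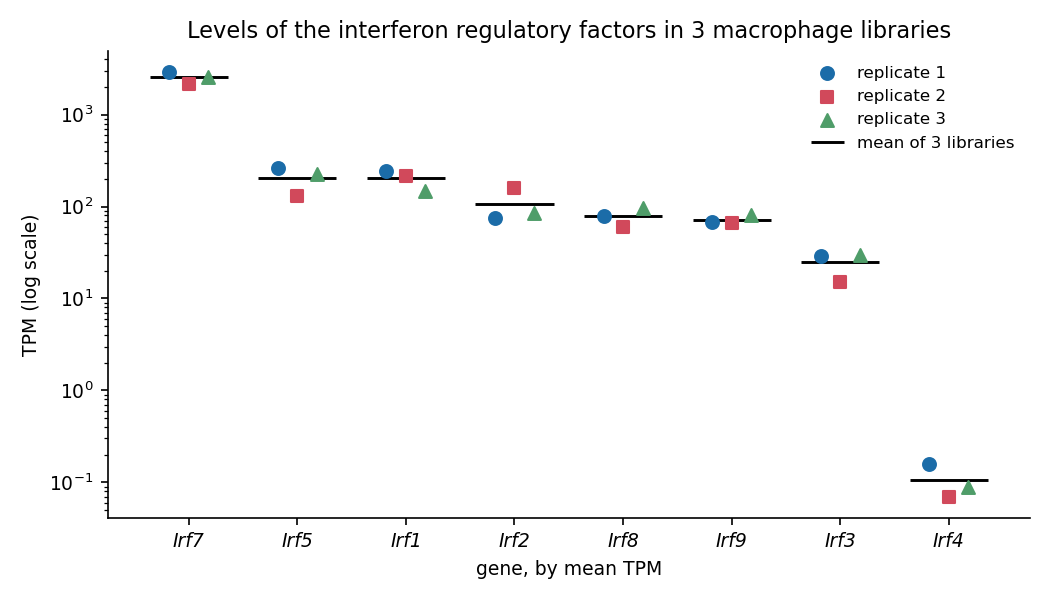
TPM of each factor on a log axis, ordered by mean, with 1 symbol per library and a bar at the mean of the 3 libraries. Irf7 stands between 2136 and 2908 TPM, 6 factors have means between 24.8 and 206 TPM, and Irf4 lies at about 0.1 TPM.

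By mean TPM the order was Irf7, Irf5, Irf1, Irf2, Irf8, Irf9, Irf3 and Irf4. A pair was called separated when the log2 ratio of TPM + 0.1 had the same sign in the 3 libraries and a mean above 3 SD, which is a description, since a sign-flip test over 3 libraries cannot give a p under 0.25. Of 28 pairs, 24 kept 1 sign and 19 were separated. Of the 7 neighbours in the order, 3 were separated, Irf7 above Irf5 (12.7-fold, 3.67 ± 0.31 log2 units), Irf9 above Irf3 (3.01-fold, 1.59 ± 0.48) and Irf3 above Irf4 (117-fold, 6.87 ± 0.41). The last ratio depends on the added 0.1, which is of the size of Irf4, and was 4.48 log2 units with 1 added in its place. The call of Irf9 over Irf3 was lost without replicate 3 (mean 1.67) and with the second quantification (1.33), and without replicate 2 Irf8 over Irf9 became separated (0.24). The other 4 neighbours were not separated over the 3 libraries by this rule. Irf1 over Irf2 kept its sign and had a mean of 0.98 ± 0.65. Irf5 over Irf1 was 0.10, -0.72 and 0.60 log2 units in replicates 1, 2 and 3, with no lead for either. Irf2 over Irf8 was -0.06, 1.39 and -0.21, so Irf2 led in replicate 2 and trailed slightly in the others. Irf8 over Irf9 was 0.20, -0.14 and 0.28. The order in the middle of the family, from Irf5 to Irf9, was therefore only partly resolved.

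**Figure D2:**
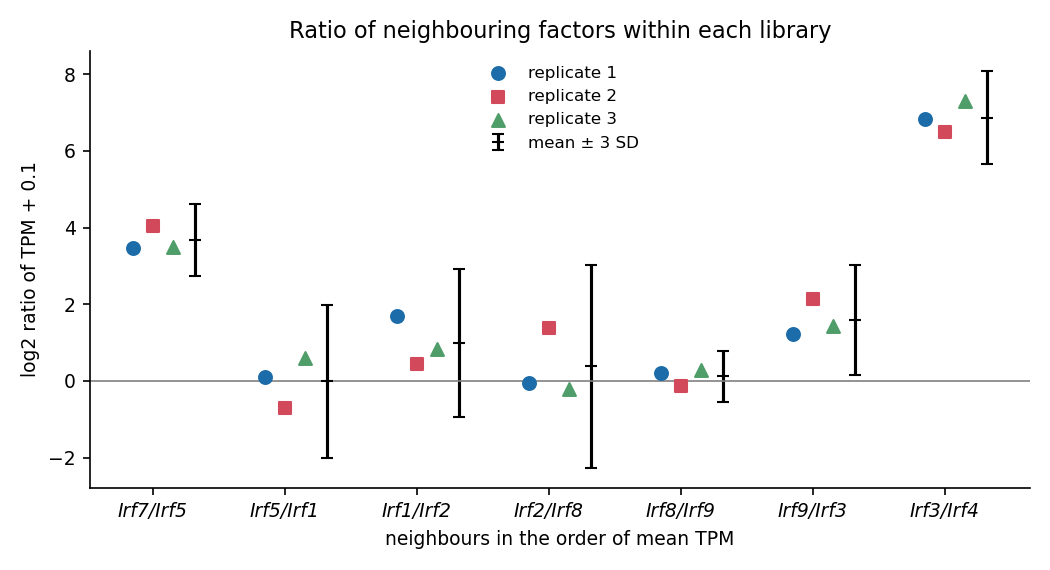
Log2 ratio of TPM + 0.1 within each library for the 7 neighbouring pairs in the order of mean TPM, with 1 symbol per replicate and a bar for the mean ± 3 SD. The bars of Irf7/Irf5, Irf9/Irf3 and Irf3/Irf4 stay above 0 and the other 4 cross it.

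Whether the factors varied between libraries beyond counting error was asked with a chi-square test of the counts on scaled library sizes. At an adjusted p under 0.05 it called 7 of the 8 factors, against 87.9% of all 11932 genes tested, a share close to that of the family. The statistic was 7224 for Irf2, 3988 for Irf7, 2364 for Irf5, 1345 for Irf1, 105 for Irf3, 94.8 for Irf9 and 83.5 for Irf8. It grows with the counts of a gene, so these values do not rank the factors by how much they varied. Irf4 was not called (2.60, adjusted p = 0.290). Without replicate 2 the chi-square calls of Irf2 (adjusted p = 0.500) and Irf3 (adjusted p = 0.891) were lost, and without replicate 3 that of Irf8 was (adjusted p = 0.870). Calls fell over all genes too. Without replicate 2 they numbered 5 of 8 factors and 6695 of 12181 genes. Without replicate 3 they numbered 6 of 8 factors and 9121 of 11944 genes.

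Whether a factor varied more than other genes of its level was asked with the gene-wise variance of edgeR's quasi-likelihood fit. This called 0 of the 8 factors at an adjusted p under 0.05, and 0% of the 11932 genes. Without adjustment the edgeR test listed 503 of the 11932 genes under the same threshold of 0.05, and 1 of the 8 factors, Irf2. Where no gene is in excess, such a threshold lists a share of about 0.05, so this listing is not read as a call. The variance of Irf2 was 7.93 times that of the trend (edgeR, adjusted p = 0.933). That value rested on replicate 2, without which the ratio was 0.012 for Irf2 and 7.64 for Irf1, neither of them called (edgeR, adjusted p = 0.998 and 0.591). With all libraries the ratio of the other factors lay between 0.10 for Irf8 and 1.85 for Irf5, and it was 0.17 for Irf7. The ratios of Irf7, Irf8 and Irf9 were all under 0.2, and a p that misses the threshold does not show that a factor was steady.

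Base composition moved with replicate 2. Across 10838 protein-coding genes the difference of replicate 2 from the mean of replicates 1 and 3, in log2(CPM + 1) with scaled library sizes, had a Spearman rho of -0.49 with the GC content of the gene's main transcript. The same rho for replicate 1 against replicate 3 was -0.13. The points are genes of the same 3 libraries. Irf2 had a GC content of 46.8%, below the median of all genes, and lay 1.71 log2 units higher in replicate 2, above 99.1% of genes. Irf5 (GC 57.4%) lay at -0.89 log2 units there and Irf3 (GC 56.7%) at -0.62. Irf7, of a similar GC content (56.5%), lay at -0.24, Irf1 (52.8%) at -0.16, Irf8 (55.1%) at -0.10 and Irf9 (50.9%) at 0.24. The part of base composition in these differences was not tested.

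**Figure D3:**
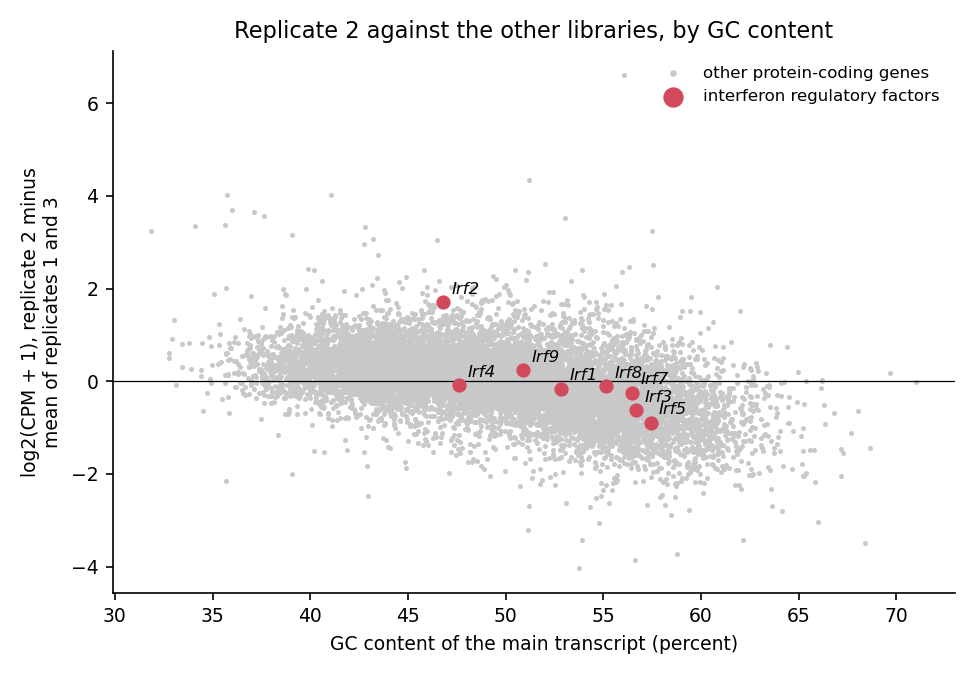
Replicate 2 minus the mean of replicates 1 and 3, in log2(CPM + 1), against the GC content of each gene's main transcript in percent, with 1 point per protein-coding gene and the 8 factors in red. The cloud slopes down to the right (rho -0.49), and Irf2 stands at 1.71, above 99.1% of all genes plotted.

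Transcript usage of the factors was described next, from the percent of each gene's TPM that the first quantification gave to each transcript. The family had 70 annotated transcripts, of which 24 reached 10% of their gene in at least 1 library. Irf7 was spread over several. The transcript with the longest coding region (1371 bases), Irf7-201, took 46.5%, 26.1% and 43.8% in replicates 1, 2 and 3. Irf7-203, without the start of exon 6, took 22.7%, 13.2% and 21.3%. Irf7-202, without exon 7, took 15.1%, 25.0% and 18.4%. The transcript with intron 5 retained, Irf7-210, took 9.24%, 4.54% and 9.31%, which in TPM was 269, 97.0 and 239, more than the whole of Irf1 or Irf5 in replicate 1. Replicates 1 and 3 thus gave nearly the same mixture. The second quantification divided these transcripts otherwise, with 56.1%, 28.1% and 57.9% on Irf7-201, 11.5%, 7.67% and 12.3% on Irf7-203, 10.7%, 22.7% and 12.4% on Irf7-202 and 13.2%, 6.84% and 11.5% on Irf7-210.

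Replicate 2 differed by Irf7-205, the short transcript of 2 exons with intron 3 retained. It took 23.1% there, or 493 TPM, against 0.29% in replicate 1 and 0.28% in replicate 3. The second quantification gave it 22.7% in replicate 2, 0.64% in replicate 1 and 0.37% in replicate 3. TPM divides counts by length, and this model has 687 bases, so its share of counts was smaller. In the first quantification Irf7-205 had 9601 of the 118910 expected counts of Irf7 in replicate 2, against 61 and 91 counts in replicates 1 and 3. Irf7-207, which lacks exons 3 and 4, was also read almost only in replicate 2, with 6.42% against 0.03% and 0.06% in replicates 1 and 3. Between replicates 1 and 2, 39.2% of the TPM of Irf7 lay on different transcripts, and between replicates 1 and 3 it was 5.23%. The medians over the 5889 genes were 18.5% and 5.90%, so Irf7 shifted more than most genes in replicate 2 and about as much as most between the others.

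Irf1 was spread over 3 transcripts in replicate 2 and concentrated on 1 in the others. The full-length Irf1-202 held 94.7% in replicate 1, 35.8% in replicate 2 and 97.0% in replicate 3. In replicate 2 the form without exon 7, Irf1-208, held 36.5%, and Irf1-205, which lacks exons 2 and 3 and has no annotated coding sequence, held 25.8%. In replicates 1 and 3 these stood at 0.18% and 0.00% for Irf1-208 and at 0.00% in both for Irf1-205. Irf1-208 and Irf1-205 are short models of 833 and 943 bases, and TPM divides counts by length. Of the 9998 expected counts of Irf1 in replicate 2, Irf1-202 had 6121, Irf1-208 had 1998 and Irf1-205 had 1670. The full-length transcript thus still led there in counts. The second quantification also put replicate 2 apart, with 49.0% on Irf1-208, but gave that transcript 11.2% in replicate 1 and 18.7% in replicate 3. Its near absence from these libraries thus rests on the first quantification.

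Irf5 behaved alike. Irf5-201 held 91.5%, 48.4% and 90.8% in replicates 1, 2 and 3. Irf5-205, which ends in another last exon, held 27.9% in replicate 2, against 0.29% and 0.56% in replicates 1 and 3. Irf5-204, a short model of 402 bases, held 21.1% in replicate 2, against 2.00% and 0.50%. Its share in replicate 2 came from 212 of the 7898 expected counts of the gene, because TPM divides counts by length. Every Irf5 transcript with a value is annotated as protein-coding, so the share of coding transcripts stayed at 100% in each library.

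Irf2 kept its main transcript, Irf2-201, at 69.8%, 78.7% and 63.0% in replicates 1, 2 and 3. Irf2-210, which leaves out exon 6 and is annotated as a target of nonsense-mediated decay, held 5.71%, 15.7% and 7.43%, and the short Irf2-203 held 7.75%, 3.86% and 13.7%. Irf2-203 has 352 bases, and its shares came from only 11.0, 35.0 and 33.2 expected counts in replicates 1, 2 and 3. Irf8 was the simplest, with 96.6%, 97.7% and 95.5% on Irf8-201. Irf9 was split between Irf9-202 (38.4%, 38.3% and 59.3%) and Irf9-205 (47.0%, 53.4% and 25.6%), and replicate 3 was the one that differed. Irf9-203 held 9.54%, 5.59% and 11.2%. Irf4 was assigned to Irf4-201 in replicate 1 (100%) and to Irf4-202 in replicates 2 and 3 (97.2% and 100%), from at most 14 counts a library and between transcripts of 4764 and 4761 bases.

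Irf3 had the largest share of transcripts with a retained intron. They took 52.5%, 34.1% and 26.9% of its TPM in replicates 1, 2 and 3 (37.8 ± 13.2%), a mean above that of 96.7% of the 5889 genes, whose median was 0.90%. The second quantification gave 64.6%, 45.4% and 47.9%. Irf3-207, which retains intron 5 (98 bases, chromosome 7, 45000547 to 45000644), led them with 27.8%, 9.08% and 7.33%. Irf3-208, Irf3-210 and Irf3-212 held 3.89% to 9.95% in each library. They are models of 629 to 659 bases, each with only 10.8 to 32.7 expected counts in a library. Because TPM divides counts by length, the retained-intron share of Irf3 was smaller in counts than in TPM. Of the coding transcripts Irf3-201 held 23.3%, 24.0% and 50.6%, against 3.59%, 8.27% and 23.1% in the second quantification. In the first, Irf3-213 held 9.85%, 13.8% and 7.31%, Irf3-202 held 9.06%, 14.7% and 0.00%, and Irf3-211 held 0.00%, 3.44% and 10.4%. With 581, 706 and 1122 expected counts for the whole gene these splits are the least precise of the 7 factors above 1 TPM. Irf7 followed with a retained-intron share of 12.0%, 28.3% and 11.1%, above that of 88.3% of genes. In replicate 2 most of that share of Irf7 lay on the short Irf7-205 (23.1%). In Irf1, Irf2, Irf8 and Irf9 the share was at most 5.07% in any library, and Irf4 and Irf5 have no such transcript in the annotation.

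**Figure D4:**
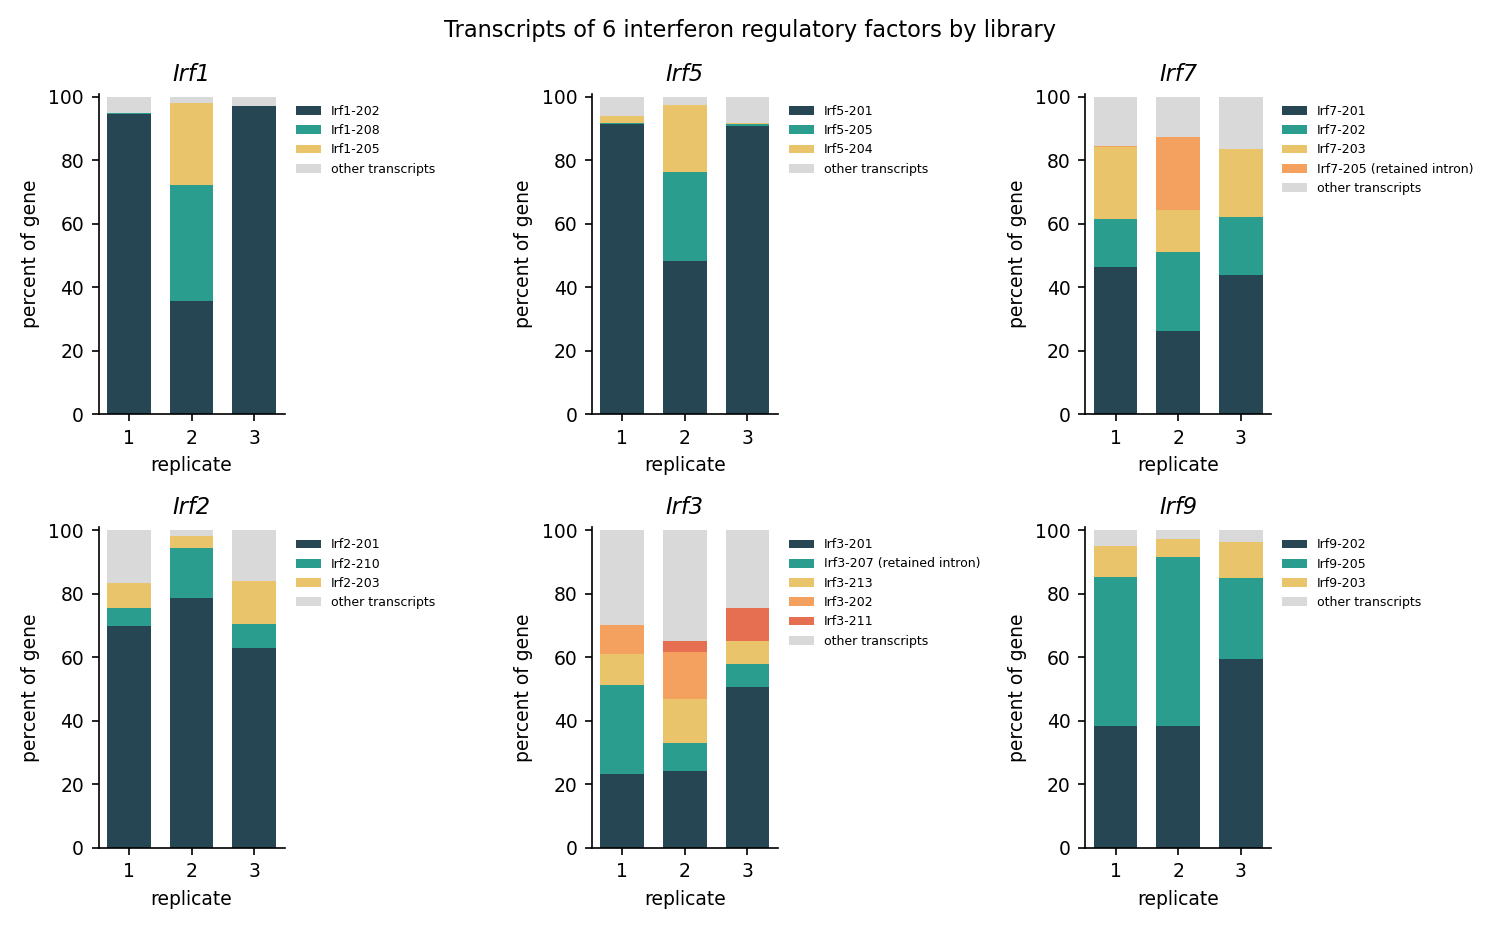
Percent of each gene's TPM on its transcripts in replicates 1, 2 and 3 for 6 factors, first quantification, with transcripts under 10% in every library stacked in grey. Irf1, Irf5 and Irf7 have 1 pattern in replicates 1 and 3 and another in replicate 2, and Irf3 is spread over many transcripts.

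The second quantification gave each gene as a whole a mean of 0.844 (Irf7) to 1.06 (Irf1) times that of the first. Replicate 1 was lower in the second for every factor, with 46.8 against 68.2 TPM for Irf9 and 185 against 261 TPM for Irf5. By mean, Irf1 stood above Irf5 in the second. Irf7 had 2022, 2202 and 2202 TPM in replicates 1, 2 and 3 there, and the mean was 2142 ± 104 TPM. Mean TPM was 214 ± 58.2 for Irf1, 109 ± 60.4 for Irf2, 24.7 ± 6.44 for Irf3, 182 ± 27.1 for Irf5, 73.1 ± 17.0 for Irf8 and 62.0 ± 13.2 for Irf9. Compared within libraries by limma, second minus first, 0 of the 7 factors with a mean of at least 1 TPM passed an adjusted p under 0.05 with a difference of at least 1 log2 unit, against 1.66% of 10203 genes. At an adjusted p under 0.05 alone limma also called 0 of them. The estimates ran from -0.23 for Irf7 to 0.08 for Irf1, beside a median of -0.14 over all genes. Their standard error, 0.18, was the same for each because limma pooled it over genes, so it does not carry a factor's own spread. Without replicate 1 the estimates ran from -0.09 for Irf7 to 0.28 for Irf1. At an unadjusted p the smallest limma value was 0.196, for Irf7.

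Regulatory letters in the promoters were read next, because the family's own genes are known targets of interferon signalling. RefSeq windows on GRCm38.p6 (mm10), 250 bases before to 50 after a start, were found for all 8 factors, 11 windows in all. Both strands were searched for the core of the interferon-stimulated response element (GAAA, any 2 bases, GAAA), the ETS-IRF composite core (GGAA, any 2 bases, GAAA), the gamma-activated site (TTC, any 3 bases, GAA) and the core of an NF-kB site (GGG, any 2 bases, TTCC). These occur in 3.44%, 2.72%, 8.30% and 5.82% of 32851 windows of all genes. Of the 11 windows of the family, 3 held a match, those of Irf1, Irf2 and Irf8. All 3 held a gamma-activated site, and the other motifs, as spelled here, were in that of Irf2 alone. The NF-kB pattern allows only 2 free bases, so NF-kB sites with another spacing or other letters were not searched for. Its absence from a window, that of Irf1 included, does not show that no NF-kB site is there. The share of all windows with any of the 4 motifs was not counted, and 11 windows are too few to compare with it. The window of Irf2 held all 4 motifs, with the first pair overlapping, and is shown with the matches in capitals.
Irf2 promoter, chr8:46739495-46739794, plus strand: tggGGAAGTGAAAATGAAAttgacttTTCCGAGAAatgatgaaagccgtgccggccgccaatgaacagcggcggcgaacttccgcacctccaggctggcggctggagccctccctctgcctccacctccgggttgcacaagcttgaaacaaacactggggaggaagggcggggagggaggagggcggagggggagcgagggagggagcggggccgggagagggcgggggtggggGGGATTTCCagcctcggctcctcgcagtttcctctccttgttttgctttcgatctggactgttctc

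The window of Irf1 (chromosome 11, 53769764 to 53770063) held 1 gamma-activated site, TTCCCCGAA, starting 90 bases before the start (position -90). That of Irf8 (chromosome 8, 120736108 to 120736407) held 2 of them, TTCTCGGAA at -171 and TTCAGAGAA at -153. These 3 genes had means of 203, 106 and 78.8 TPM, and Irf7, whose window held none of these letters, had 2538 TPM. A match is a description of letters and no match says only that they are not in this window.

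The genes that act on the factors were then set beside them, in lists chosen by function with earlier results of these data known. Shares and medians of these and the later lists, set beside all protein-coding genes, are therefore a description and no test. All 19 genes of the list called activating signal chain reached 1 TPM in every library, against 43.0% of all 21951 protein-coding genes. The list is not one of activators alone, since it holds Irak3 (109 ± 81.4 TPM), a brake on Toll-like receptor signalling. Their median was 96.2 TPM, against 0.31 TPM over all protein-coding genes. The list's own medians were 33.2, 95.3 and 57.3 TPM in replicates 1, 2 and 3, and the median of log2(mean TPM + 1), 6.60, was 5.53 without replicate 2. The highest were the lipid A co-receptor Cd14 (330 ± 209 TPM), the kinase Ikbke (277 ± 77.9 TPM) and Slc15a4, an endolysosomal transporter that Irf5 activation uses (164 ± 206 TPM). The level of Slc15a4 rested on replicate 2 and on the first quantification, with 401 TPM there against 33.2 and 57.3 TPM in replicates 1 and 3. The second quantification gave it 25.4, 109 and 39.0 TPM. Its expected counts in the first were 1386, 1481 and 2765. Tbk1, the kinase of Irf3, had 111 ± 37.5 TPM and Myd88, the adaptor above Irf5, 139 ± 32.3 TPM. The lowest were the ubiquitin ligases Traf6 (9.02 ± 0.85 TPM) and Traf3 (8.63 ± 1.45 TPM).

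Of 12 partners and co-activators, 11 reached 1 TPM in every library, with a median of 65.4 TPM. Stat2, a partner of Irf9, had 437 ± 93.4 TPM, and Irf9 was below it in each library. Spi1, the ETS factor that recruits Irf4 and Irf8, had 576 ± 148 TPM, and Batf, which binds with them at other sites, 269 ± 96.9 TPM. The relatives that lymphoid and dendritic cells use were low, Batf3 with 3.75 ± 1.82 TPM and Spib with 0.68 ± 0.06 TPM. All 10 inhibitors reached 1 TPM in every library, with a median of 44.0 TPM. The kinase Lyn, which restrains Irf5, had 299 ± 38.3 TPM, Atf4, which binds Irf7, 183 ± 103 TPM, and the ubiquitin ligase Trim21 122 ± 17.2 TPM. The co-repressor Irf2bp1 was lowest, at 6.56 ± 3.62 TPM.

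Interferon genes themselves were hardly read, as far as they were listed (Ifnb1, Ifng, Ifna2, Ifna4 and Ifna5). Ifnb1, the first interferon that Irf3 turns on, had 9.90 TPM in replicate 1, 1.99 TPM in replicate 2 and 2.39 TPM in replicate 3, from 83, 44 and 35 counts. Ifna2, Ifna4 and Ifna5, interferon alpha genes that Irf7 turns on, had 0 counts in every library, which allows at most 0.578 TPM for Ifna4 in replicate 1 at 3 counts a library. Such limits cover counting error only. Ifng had 22 counts in replicate 2 and 0 in the others. The receptor chain Ifnar2 (186 ± 37.8 TPM) and the kinases Jak2 (100 ± 24.0 TPM) and Jak1 (87.1 ± 7.19 TPM) led this list, of which 8 of 12 genes reached 1 TPM in every library.

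Known targets of Irf3, Irf7 and Irf9 were the highest of these lists. All 12 had a mean of at least 100 TPM, against 5.72% of all protein-coding genes, and their median was 1790 TPM. Ccl5, a chemokine for T cells, had 32924, 6168 and 29588 TPM in replicates 1, 2 and 3, so replicate 2 was far below the others. Cxcl10 had 4232 ± 2061 TPM and the antiviral enzyme Rsad2 3232 ± 999 TPM. The lowest were the deconjugating enzyme Usp18 (598 ± 211 TPM) and the oligoadenylate synthetase Oas1a (330 ± 154 TPM). Their summed TPM was 60089, 21273 and 47975 in replicates 1, 2 and 3. Irf7 was also lowest in replicate 2 in the first quantification, but in the second it was lowest in replicate 1.

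Of 12 targets of Irf1 and Irf8, 10 reached 1 TPM in every library, with a median of 186 TPM. The guanylate-binding protein Gbp2 (1296 ± 20.5 TPM), the checkpoint ligand Cd274 (790 ± 232 TPM) and the oxidase subunit Cybb (521 ± 83.1 TPM) were highest. The class II regulator Ciita had 3.37 ± 2.22 TPM and the interleukin-12 subunit Il12a 0.70 ± 0.96 TPM, the lowest. Of 6 cytokine targets of Irf5, 4 reached 1 TPM in every library, with a median of 34.6 TPM. Tnf had 706, 233 and 231 TPM in replicates 1, 2 and 3, Il1b had 185 ± 92.6 TPM and Il12b 40.4, 24.7 and 68.6 TPM, whereas Il12a and Il23a (0.23 ± 0.39 TPM) were lowest.

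Of 8 genes linked to Irf4 in alternative activation, 4 reached 1 TPM in every library, or 50%, against the 43.0% of all protein-coding genes. Their median was 1.35 TPM, against 0.31 TPM over all protein-coding genes. They were led by the mannose receptor Mrc1 (15.8 ± 4.46 TPM), Ccl22 (12.1 ± 6.24 TPM) and Chil3 (4.54 ± 2.29 TPM). The expected count was 0 throughout for Arg1, Retnla and Ccl17, so that 3 counts would correspond to 0.680 TPM for Ccl17 in replicate 1. Markers of other blood cells, several of which use Irf4 or Irf8 in their development, were low. Those under 1 TPM in every library were 5 of 6 for B and plasma cells, 4 of 5 for plasmacytoid dendritic cells, 5 of 5 for conventional dendritic cells, 6 of 6 for T and NK cells and 5 of 5 for neutrophils. The summed TPM of a list ranged over the libraries from 1.68 to 3.28 for B and plasma cells, nearly all of it Cd79b, and from 3.61 to 10.7 for plasmacytoid dendritic cells, most of it Cox6a2. It ranged from 0.53 to 0.84 for conventional dendritic cells, from 0.03 to 0.97 for T and NK cells and from 0.36 to 0.88 for neutrophils. Cd79a, Cd209a, Nkg7 and Ly6g were at 0 counts throughout. In bulk RNA, fewer cells of a type and less RNA per cell cannot be told apart.

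**Figure D5:**
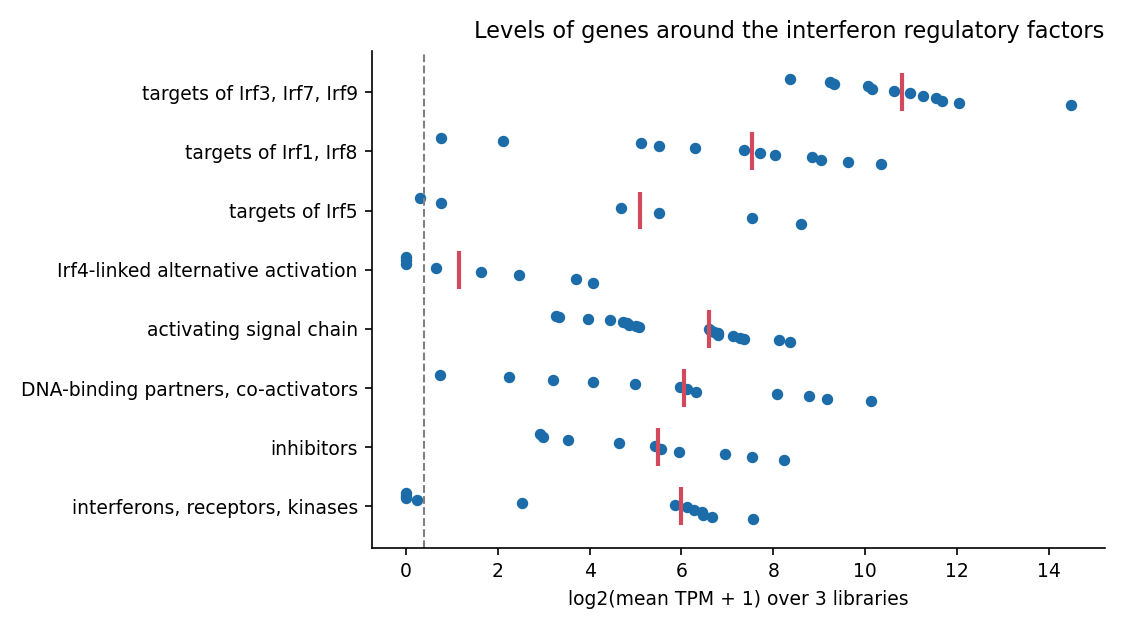
Log2 of mean TPM + 1 over the 3 libraries for each gene of 8 lists around the family, with a red bar at each list's median and a dashed line at the median of all protein-coding genes. The targets of Irf3, Irf7 and Irf9 are all far to the right of the dashed line. The interferon alpha genes listed (Ifna2, Ifna4 and Ifna5) and 3 genes linked to Irf4 lie at 0.

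The protein-coding genes nearest to Irf7 in level over the 3 libraries, by Euclidean distance of log2(TPM + 1), were the antiviral gene Ifit2 (2978, 2091 and 2224 TPM in replicates 1, 2 and 3, distance 0.21), the elongation factor Eef1a1 (distance 0.33) and the protease Ctsz (distance 0.45). The nearest to Irf4 were Tpbg, Ltbp2 and Amotl2 (each at a distance of 0.02), which like it had 0.17 TPM or less in every library. Likeness over 3 libraries of 1 group says only that the levels were close.

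Exons of other genes overlap those of 5 factors. Tnpo3, on the opposite strand, covers 14.1% of the exon bases of Irf5 and had 27.3 ± 1.77 TPM. The others share less. Gm17334 covers 3.40% of Irf1, Bcl2l12 covers 2.56% of Irf3 and Phrf1 covers 1.19% of Irf7, on the opposite strand, and Rnf31, on the same strand, covers 2.28% of Irf9. Their means were 1.35 ± 1.10, 5.16 ± 1.27, 20.5 ± 1.21 and 45.6 ± 14.0 TPM. Strandedness of the libraries is not given in the sources used here, so reads from these stretches cannot be assigned to a strand with certainty.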

How the data were processed

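Polyadenylated RNA of 3 libraries was quantified by the authors in 2 ways on mm10 with GENCODE M21 transcripts, per the labels and the notes deposited with the files. No tool version, sequencer or strandedness is given in the sources used here. In the deposited first tables, for genes and transcripts, the values are, per the file headers, expected counts (a read is shared among transcripts it could come from), TPM and the percent of its gene that each transcript takes. Per the file headers, the deposited second tables hold estimated counts and TPM per transcript, which were summed to genes here. The division of such reads is estimated by a model, and both transcript shares and gene levels depend on it.

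The lists (123 genes in 15 lists, all found by symbol in M21) and the rule for named genes were written with earlier results of these data known. Entries that name no annotated gene (26345 rows, 0.0464% to 0.0875% of counts) were left out of tests. Expected counts were rounded. Genes were kept by filterByExpr (11932) and scaled by TMM (factors 1.01, 0.886 and 1.12) in edgeR 4.0.16 (R 4.3.3). Excess variance is the gene-wise variance against the trend of an intercept-only quasi-likelihood fit, one-sided F test. Counting noise is a chi-square test of homogeneity. Quantifications were compared with limma 3.58.1 on within-library differences of log2(TPM + 1). Each test was adjusted by Benjamini-Hochberg over all genes at a threshold of 0.05, and each was checked on simulated data. DESeq2 1.42.0 gave alternative size factors. Motifs were searched in RefSeq promoter windows. Named genes were all 8 members, the 3 highest and 2 lowest genes of each list with others of a mean above 100 TPM or at 0, transcripts at 10% of their gene in any library, the 3 genes nearest to Irf7 and to Irf4, and genes with overlapping exons. Some genes that the rule would name are not reported here. Replicates are numbered as in the labels, and the numbers pair nothing.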

Additional observations from a re-analysis of the deposited data

How the results depend on the processing

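Scaling by DESeq2 size factors, no filter on low counts, the second quantification and leaving out each library left the number of factors with excess variance at 0 in edgeR. The count over all genes, 0 with all libraries, was 64 with no filter and 7 to 20 with 1 library left out. The factors beyond counting noise numbered 5 to 7 of 8 with 1 library left out, against 7 with all. Of the genes, 6695 of 12181 were called without replicate 2, the lowest, and 9121 of 11944 without replicate 3. Without replicate 1 it was 9696 of 12205, and with all libraries 10491 of 11932. Factors differing between quantifications remained 0 under every alternative, whereas the genes were 258 with a pseudocount of 0.1 and 0 with no filter on low values, against 169. The cause was not tested. Separated pairs numbered 17 (CPM in place of TPM) to 22 (without replicate 2) and separated neighbours 2 to 4, the lower value with the second quantification or without replicate 3. Irf5 over Irf8 and Irf5 over Irf9 were not separated in CPM, Irf5 over Irf9 not without replicate 3, and Irf1 over Irf3 not without replicate 1. Of 40 alternatives for the mean TPM of a factor 4 moved it beyond 1 SD (Irf7 to 2996 and Irf9 to 85.2 TPM when rescaled to nuclear protein-coding genes, and to 2142 and 62.0 TPM in the second quantification), as did 3 of 32 for its share of coding transcripts. Of 168 alternatives for the log2 ratio of a pair, 22 moved it beyond 1 SD and 4 turned its sign, none of them in a separated pair. Irf2 over Irf8, 0.38 with all, was -0.11 in CPM and -0.13 without replicate 2, and Irf5 over Irf1, -0.01 with all, was 0.15 and 0.35. No paired analysis was possible because there is 1 group. Levels rest on 3 libraries of unequal depth, transcript shares of replicate 2 differ from the others in both quantifications, and Irf4, with 12 to 14 counts, is read too thinly for any statement on its transcripts.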

Other observations

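Summed without Irf7, the other 7 factors came to 756, 647 and 667 TPM in replicates 1, 2 and 3 (690 ± 57.8 TPM), a narrower relative spread than that of Irf1, Irf2, Irf3 or Irf5 alone.

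Of the 22 transcripts of the family annotated with a retained intron, Irf7-205, Irf7-210, Irf3-207, Irf3-208, Irf3-210 and Irf3-212 are described above. Irf7-206 held 1.41%, 0.16% and 0.79% of Irf7 in replicates 1, 2 and 3, and Irf7-209, Irf7-211 and Irf7-213 held 0.71% or less in each library. Irf3-205, Irf3-209 and Irf9-201 were listed at 0 throughout. Irf9-204 held 1.47% to 2.53% and Irf9-206 held 1.29% to 2.55% of Irf9, and Irf8-202 and Irf8-207 held 0.35% to 1.76% of Irf8. Irf1-210 held 0.20% to 1.08% of Irf1, and Irf2-206, Irf2-207, Irf2-208 and Irf2-211 held at most 1.33% of Irf2.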
